A study of Mus musculus with 4 samples.

Results

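The regions examined were the listed m6A regions that overlapped an annotated 5'UTR, the stretch of an mRNA between its cap and its start codon. N6-methyladenosine (m6A) is a methyl mark on adenosines within mRNA, and the deposited table gave 1 read count per genotype for each region. A region was taken once, by its chromosome, start and end, when at least 1 of its annotation rows named a 5'UTR and none named a 3'UTR. These were 401 of 6697 distinct regions (5.99%), annotated as 5'UTR for 376 genes, 22 of which had several such regions. Regions with a row for each UTR, 3 in number, were left out. The choice used annotation and no read count.

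The study compared mouse embryonic stem cells of the E14K line, wild type or lacking both Gsk-3 kinases (Gsk-3 double knockout, DKO), which restrain Wnt and insulin signalling. Cells of both genotypes were feeder-free, on gelatin in serum medium, and had been without the self-renewal cytokine LIF for 14 days. Each genotype had 1 m6A immunoprecipitate, made from oligo(dT)-selected RNA with antibody-coupled beads, and 1 input (4 samples), and the labels do not say whether the knockout line is 1 clone. The table held 0 input columns, its headers named the genotype only, and its counts were matched to the immunoprecipitates by title. The input libraries were not analysed here, so a lower m6A count and a lower level of the mRNA cannot be told apart, nor can fewer cells of a type and less RNA per cell. No p-value was therefore computed, and values compare these particular libraries and not the genotypes.

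In mammals m6A is placed on nascent mRNA by a complex built around METTL3 and METTL14, at adenosines in short motifs such as GGAC. Most of it lies near stop codons, in long internal exons and in 3'UTRs. In 5'UTRs it has been linked with cap-independent translation initiation, and antibodies to m6A also bind m6Am, a related mark on the first transcribed nucleotide that is made by another enzyme, PCIF1. A count over a 5'UTR region therefore does not tell these marks apart.

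Short stretches around the motif are shown for the members whose region covered it within the first 50 transcribed bases, to show where the letters of the methylation motif stand near the cap. Of 17 such genes the 9 with the most wild-type reads are given, each by its motif nearest to the start. Letters are from RefSeq on GRCm38.p6, 5′ to 3′ on the gene's strand, in lower case except the GGAC nearest to the start, and Hnrnph1 holds a second one left in lower case. Tsc22d1, at chr14:76415832-76415861 on the plus strand, had 230 wild-type and 13 DKO reads in its region. Fzd7, at chr1:59482167-59482196 on the plus strand, had 216 and 27, and Ephb3, at chr16:21204813-21204842 on the plus strand, had 128 and 20. Nat14, at chr7:4922586-4922615, had 53 and 0, and Hnrnph1, at chr11:50378293-50378322, had 50 and 5, both on the plus strand. Foxj2, at chr6:122820184-122820213 on the plus strand, and Igf2r, at chr17:12769677-12769706 on the minus strand, each had 46 and 1. Mboat7, at chr7:3692956-3692985 on the minus strand, had 44 and 0, and Vim, at chr2:13574317-13574346 on the plus strand, had 37 and 0.
Tsc22d1: agtgaatggcgaaGGACtgaaggggtcccc
Fzd7: cgctccttccctggcgggcggtgctGGACg
Ephb3: cggctcctaccccGGACggcgagcgcacaa
Nat14: agcaacgaaGGACcagcaagaaaggagctg
Hnrnph1: ccgcaatctgtgtGGACgccaggaccaccg
Foxj2: ctgtgccgGGACctgctccctctcccttgg
Igf2r: cgctccggGGACggccacggagcgcctcct
Mboat7: gctctttgcccggGGACctcctagaaagat
Vim: cactcttgctccgGGACcccagagacccca

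The motifs GGAC, GGACT and GAACT were searched on the transcribed strand of the first 50 bases of RefSeq transcripts, GGACT being counted within GGAC as well. GGAC was present at 17 of 50 RefSeq starts that lay inside a member region (34.0%, exact 95% binomial interval 21.2 to 48.8%). It was present at 57 of 281 starts nearest to a member (20.3%, 15.7 to 25.5%) and at 18.9% of all 32851 starts. GGACT was at 5.69% of the nearest starts and 5.76% of all starts, and GAACT at 2.85% and 4.40%. An adenosine stood at the first base of 31.0% of the nearest starts and of 34.4% of all starts. The GC content of the first 50 bases was 65.4% for the nearest starts and 56.7% for all starts. A match is a description of letters, not a methylation site, and these shares were not tested.

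The members held 31266 wild-type reads and 1626 DKO reads, which was 5.45% and 6.01% of the reads in all listed regions. Wild-type counts ran from 15 to 1398 with a median of 47 (quartiles 30 and 83), and DKO counts from 0 to 90 with a median of 1. Each of the 6697 listed regions had fewer DKO than wild-type reads, so the direction is a property of the list and says nothing about the members. Folds are wild type over DKO after the authors' constant of 0.825, and log2 values are DKO over wild type with that constant and a pseudocount of 0.5 on each count. The fold of the summed counts was 15.9 for the members and 17.5 for all regions. In the plot of both counts per region, the members lay inside the cloud of the other regions.

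**Figure D1:**
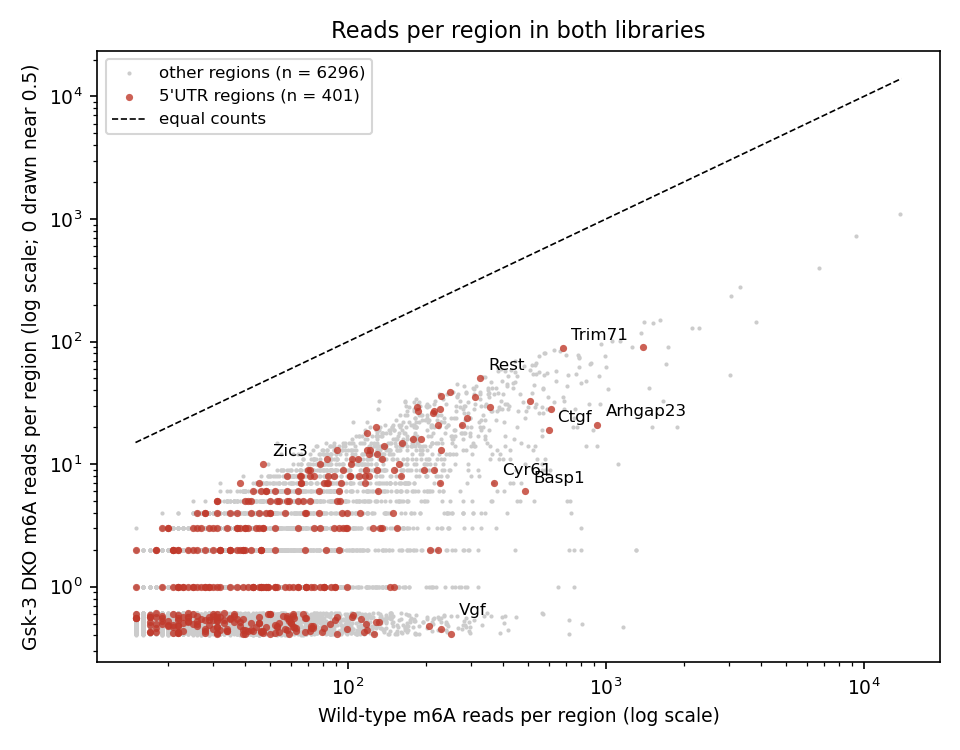
Reads per region in the wild-type library (x axis, log scale) and the Gsk-3 DKO library (y axis, log scale, counts of 0 drawn near 0.5 with jitter), 1 point per region. The 401 regions overlapping 5'UTRs lie among the others and below the line of equal counts, as do all 6697 listed regions.

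No DKO read was counted in 159 of the 401 members (39.7%, exact binomial interval 34.8 to 44.6%), against 50.5% of all 6697 regions. A further 126 members had 1 to 3 DKO reads. The fold was at least 10 in 227 members (56.6%, 51.6 to 61.5%), against 52.5% of all regions, when a count of 0 was set at a floor of 3 reads in that library. At that floor a region needs 37 wild-type reads to reach 10-fold, and 83 of the 159 members without DKO reads had fewer. The 242 members with DKO reads had folds between 3.88 and 125 and a median fold of 12.4, and the median over all such regions was 13.6. The median log2 of the members was -4.68 (quartiles -5.70 and -3.27), against -4.93 over all regions. These medians rest on the pseudocount, and with a pseudocount of 2 they were -3.37 and -3.42. The share at least 10-fold lower was thus near that of the whole list, and the share without DKO reads was below it. The first share depends on the floor, because counts of 1 or 2 were kept while 0 was set at 3. A region with fewer DKO reads can therefore have the smaller fold. Among regions with DKO reads, 151 of 242 members and 2146 of all 3315 were at least 10-fold lower.

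How the members' share of zero counts compared depended on which regions it was set against. Coding-exon regions that touched no UTR had no DKO reads in 35.0% of 2394 cases, 3'UTR regions in 37.4% of 934, and regions labelled only as intron in 70.1% of 1131. Weighted to the members' wild-type counts, the share was 36.3% in the other exonic regions (coding exon and 3'UTR) and 66.0% in introns. The members' 39.7% was therefore 3.35 points above exonic regions of like depth, although it was 11.5 points below all other regions, of which 51.2% had none. Regions at least 10-fold lower made up 56.2% of exonic regions of like depth, near the members' 56.6%, and 60.3% of intronic ones. The intronic share joins differences in opposite directions, since without DKO reads a region needs 37 wild-type reads to reach 10-fold. With 20 to 29 wild-type reads, 22 of 269 intronic regions and 18 of 71 members were at least 10-fold lower. With 50 to 99, these were 191 of 213 and 92 of 118. In these measures the values of 5'UTR regions lay near those of other exonic regions, and their share of zero counts lay below that of introns.

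**Figure D2:**
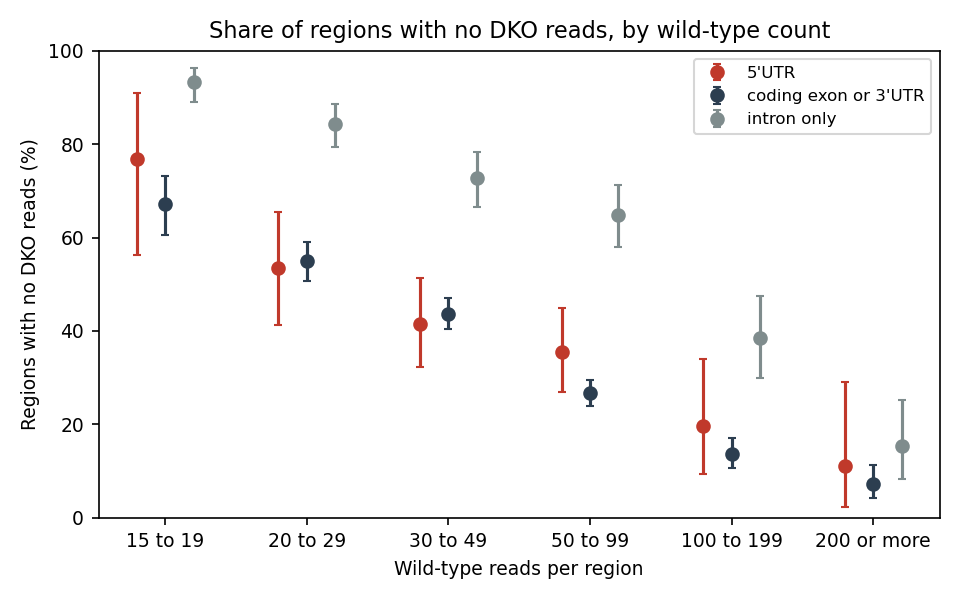
Share of regions with no DKO reads (y axis, percent) by wild-type reads per region (x axis, 6 ranges) for 5'UTR, other exonic and intron regions, with exact 95% binomial intervals. Among regions with 50 to 99 wild-type reads the share was 35.6% for 5'UTRs, 26.7% for other exons and 64.8% for introns.

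In each class the share of zero counts was lower at higher wild-type counts. Of the 26 members with 15 to 19 wild-type reads, 76.9% (56.4 to 91.0%) had no DKO read, and of the 27 members with 200 or more, 11.1% (2.35 to 29.2%) had none. Other exonic regions had 67.1% and 7.17% in the same ranges. The intervals of the members and the other exonic regions overlapped in all 6 ranges, most narrowly at 50 to 99 reads, with 35.6% (27.0 to 44.9%) of 118 members and 26.7% (23.9 to 29.6%). Read density, which is the wild-type count per base of region, had a median of 0.234 in the members, 0.242 in coding exons, 0.227 in 3'UTRs and 0.190 in introns.

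Among the 10 deepest regions chosen for naming, which leave out predicted genes, the wild-type library had 310 to 925 reads and the DKO library 6 to 88. These regions were picked by their wild-type count, and every listed region had fewer DKO than wild-type reads, so this gap is no result. Arhgap23, a GTPase-activating protein, had 925 and 21 reads over its 5'UTR and first coding bases (chr11:97451432-97452366), a fold of 36.3 (23.6 to 59.0). Basp1, a membrane-bound signalling protein of growing neurons, had 486 and 6 at chr15:25413506-25413765, a fold of 66.8 (30.5 to 183), in a region also labelled as upstream of Gm5468. These intervals are exact Clopper-Pearson limits for a ratio of 2 counts. Because PCR reads without molecular identifiers are not independent molecules, all intervals and floors here cover counting error only.

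The connective tissue growth factor gene Ctgf and its relative Cyr61, matrix-associated secreted proteins induced early after stimulation, both stood among the deepest members. Ctgf had 600 and 19 reads (chr10:24595500-24595818), a fold of 26.0 (16.5 to 43.6). Cyr61 had 369 and 7 (chr3:145649680-145649962), a fold of 43.5 (20.9 to 109). The actin cross-linker Actn1 had 615 and 28 (chr12:80259843-80260355), a fold of 18.1 (12.4 to 27.5). Another cytoskeletal gene, Myh9 for a non-muscle myosin heavy chain, had 310 and 35 (chr15:77841869-77842076), a fold of 7.31 (5.14 to 10.7). The interval of Myh9 lay below those of the other 3.

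The remaining 4 had folds under 15.9, that of the members' summed counts. Trim71, an RNA-binding repressor of early development, had the densest member, with 681 and 88 reads in 339 bases (2.01 wild-type reads per base, chr9:114563251-114563589) and a fold of 6.38 (5.11 to 8.06). Rest, which represses neuronal genes outside neurons, had 325 and 50 (chr5:77265598-77265768), a fold of 5.36 (3.97 to 7.37). The proto-oncogene Mycn had 506 and 33 (chr12:12940103-12940444), a fold of 12.6 (8.89 to 18.6). The phosphodiesterase gene Gdpd5 had 355 and 29 (chr7:99381438-99381974), a fold of 10.1 (6.91 to 15.3). The intervals of Trim71, Rest and Gdpd5 lay wholly below 15.9.

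The deepest member of all did not belong clearly to a 5'UTR. It had 1398 and 90 reads at chr8:11006803-11008349, a fold of 12.8 (10.3 to 16.0). Its 5'UTR label came from 9530052E02Rik, an RNA with a non-coding RefSeq accession, and the same bases were annotated as coding exon of Irs2, the insulin receptor substrate. The table gives no read strand, so its reads cannot be assigned to either gene. In all, 12 members overlapped a coding exon of another gene, 32 took their 5'UTR label from non-coding accessions only, and 35 were in either set. The remaining 366 members had a median log2 of -4.68 and 39.9% without DKO reads, close to the values of all 401.

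**Figure D3:**
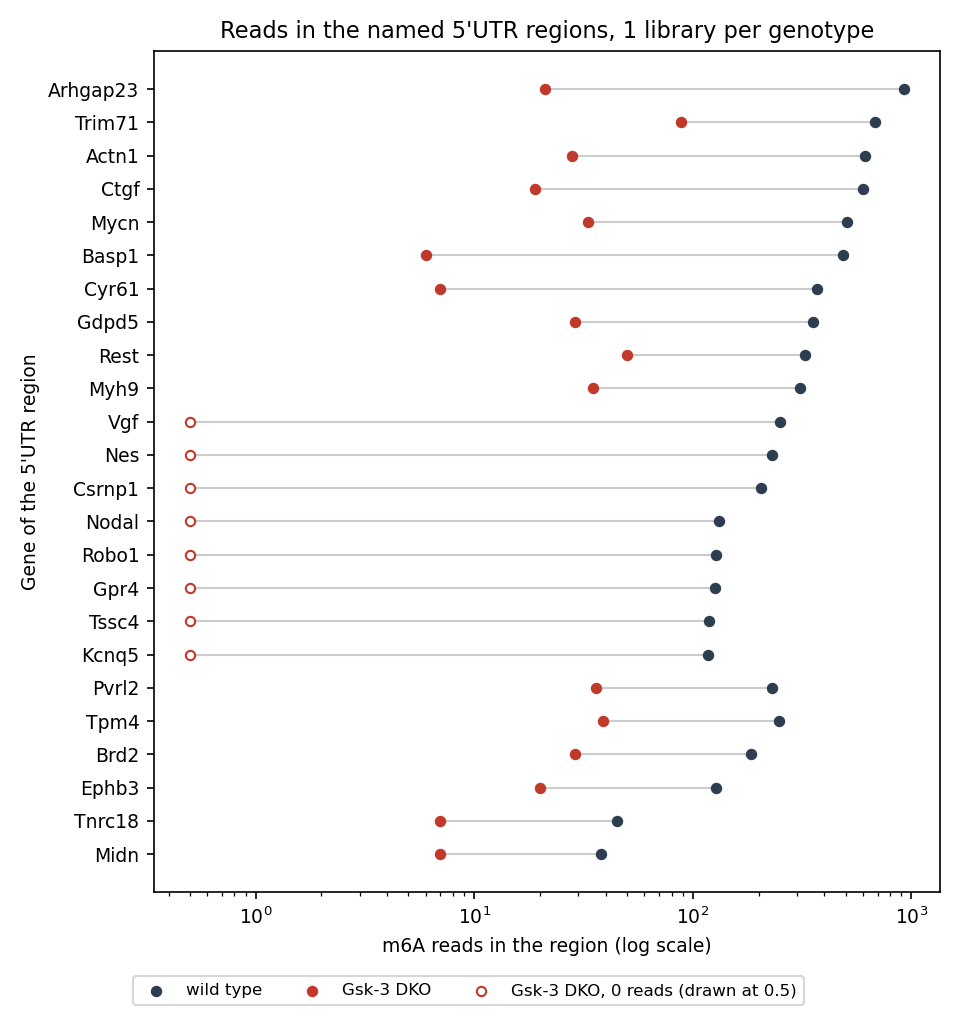
Wild-type and DKO reads (x axis, log scale) in the named 5'UTR regions (y axis, by gene), 1 library per genotype, with DKO counts of 0 drawn as open circles at 0.5. The deepest region, Arhgap23, had 925 and 21 reads, and Vgf had the deepest count without DKO reads, 250 and 0.

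The lowest log2 values, among members at or above the median mean count of all regions (22.5), were all regions without DKO reads, and their order follows the wild-type count. For regions without DKO reads, each "at least" fold in this text sets the DKO count at the floor of 3 reads. Such a fold is not an exact lower limit. Vgf, which encodes a secreted neuropeptide precursor, had 250 and 0 reads (chr5:137030239-137030508), at least 68.7-fold lower in the DKO library. Nes, the intermediate filament nestin of neural progenitors, had 230 and 0 (chr3:87971133-87971650), at least 63.2-fold lower. The nuclear protein gene Csrnp1 had 206 and 0, at least 56.6-fold lower. These were the 3 members with 200 or more wild-type reads and none in DKO. The other named regions of this kind had 117 to 132 wild-type reads. They belonged to Nodal, the TGF-beta ligand of early patterning (132, at least 36.3-fold, chr10:61418290-61418590), and to the Slit receptor Robo1 (128, at least 35.2-fold). Gpr4, a proton-sensing receptor, Tssc4 and the potassium channel gene Kcnq5 had 126, 118 and 117 reads. Exact lower limits of the fold were smaller than the floor values, at 55.5 for Vgf, 51.0 for Nes, 45.6 for Csrnp1 and 29.1 for Nodal.

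At the other end, the named members had 38 to 325 wild-type reads and folds between 4.48 and 5.36. Midn had 38 and 7 reads, a fold of 4.48 (1.98 to 11.9), and Tnrc18 had 45 and 7, a fold of 5.30 (2.37 to 13.9). Deeper members gave narrower intervals at a like fold. The ephrin receptor gene Ephb3 had 128 and 20 (5.28, 3.28 to 8.93), and Brd2, a bromodomain reader of acetylated histones, had 185 and 29 (5.26, 3.54 to 8.08). The tropomyosin gene Tpm4 had 248 and 39 (5.24, 3.73 to 7.55), and Pvrl2, a cell adhesion receptor of the nectin family, had 230 and 36 (5.27, 3.70 to 7.71). With Rest these regions were among the smallest changes, and their upper limits stayed under 10-fold except for Midn and Tnrc18.

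Among the genes with several 5'UTR regions, Trim71 had 3 that lay 328, 949 and 1259 bases from the annotated start. They had 223 and 21, 681 and 88, and 192 and 16 reads. Their folds were 8.76 (5.59 to 14.4), 6.38 (5.11 to 8.06) and 9.90 (5.94 to 17.7), with overlapping intervals. Mycn had a second region of 91 and 0 reads at 241 bases from the start (at least 25-fold), beside the region at 1563 bases with a fold of 12.6 (8.89 to 18.6). The sialyltransferase gene St3gal2 had 69 and 1 reads in one region (56.9, 9.88 to 2280) and 213 and 26 in the next (6.76, 4.49 to 10.6), so a fold from 1 read did not separate them. Slc35e4 had 215 and 9 reads (19.7, 10.2 to 43.7) and 47 and 0 (at least 12.9-fold). The kinase gene Wnk1 had 71 and 8 (7.32, 3.52 to 17.6) and 179 and 16 (9.23, 5.53 to 16.5), in regions that also lie upstream of Mir706. Zfp568 had 157 and 10 (12.9, 6.86 to 27.5) and 77 and 6 (10.6, 4.65 to 29.7), and Arid3a had 96 and 3 (26.4, 8.76 to 130) and 131 and 6 (18.0). The protocadherin gene Pcdh7 had 3 regions of 73, 60 and 49 wild-type reads and no DKO read in any. The 2 Mycn regions came apart by a small margin, with a log2 limit of -4.32 for the region without DKO reads and -4.22 for the other. Within each of the other genes the intervals of its regions overlapped.

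Members that also carried the coding-exon label, and so ran across or near a start codon, numbered 191, and 210 did not carry it. With the label, 72 regions had no DKO read (37.7%, 30.8 to 45.0%), 61.3% were at least 10-fold lower and the median log2 was -4.50. Without it, 87 had none (41.4%, 34.7 to 48.4%), 52.4% were at least 10-fold lower and the median was -4.71. The shares' intervals overlapped, and the median wild-type count was 48 and 47. The fold of sums was 17.2 with the label and 14.7 without.

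The deposited distance runs from the annotated transcription start to the region's centre along the genome, introns included. It placed 23 members upstream of the start, 144 less than 200 bases downstream, 150 at 200 bases or more but under 1000, and 84 at 1000 bases or more. Their median log2 values were -5.01, -4.63, -4.66 and -4.61. No DKO read was found in 52.2% (30.6 to 73.2%), 36.1% (28.3 to 44.5%), 40.0% (32.1 to 48.3%) and 41.7% (31.0 to 52.9%), and these intervals overlapped. The medians of the 3 downstream groups lay close together, but among members at or above the median mean count of all regions they were -4.71, -4.35 and -3.66. The upstream group had the lowest median wild-type count, 35, against 46 to 51 in the others, and the Irs2 coding-exon region held 53.2% of its wild-type reads. Regions that covered the annotated start (67) had a median log2 of -4.93, against -4.51 in the 334 that did not, with 41.8% and 39.2% without DKO reads.

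**Figure D4:**
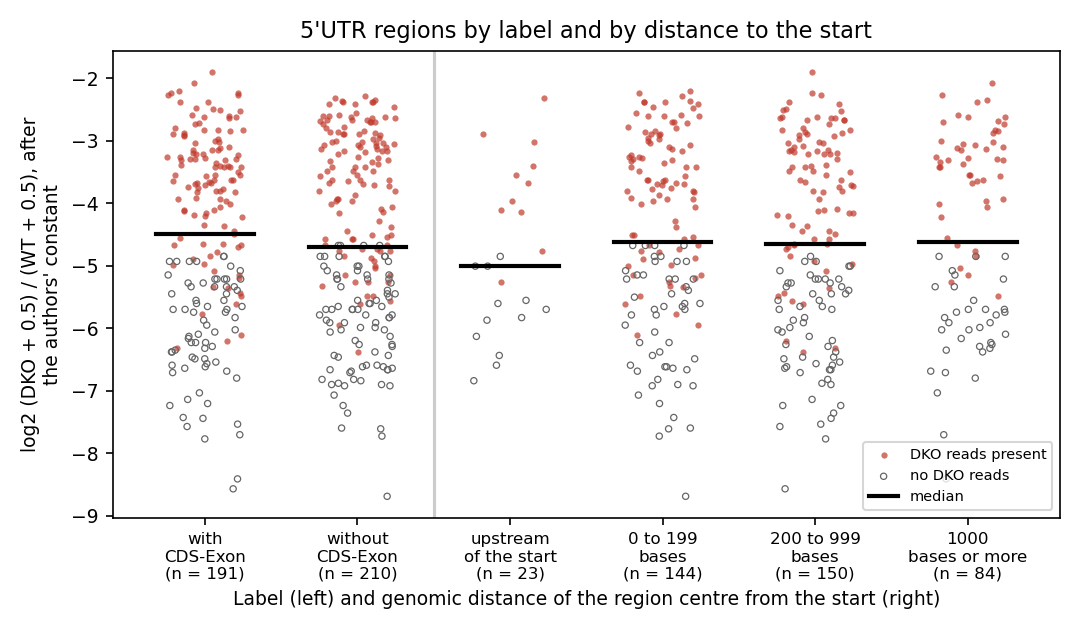
Log2 of DKO over wild type (y axis, pseudocount 0.5, after the authors' constant) for each 5'UTR region, by coding-exon label and by genomic distance from the start (x axis); filled points had DKO reads, open points had none, and bars are medians. The medians run from -5.01 upstream of the start to -4.50 with the coding-exon label, and the points of all groups overlap.

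Of the 376 genes, 195 had other listed regions, some of them only upstream of the gene. Regions in coding exons, 3'UTRs or introns gave a comparison within the gene, and upstream regions gave none. Counts were summed per gene and region class. For the 139 genes that also had a coding-exon region, the median log2 was -4.19 in 5'UTRs and -4.03 in coding exons. The median difference was 0.01 (quartiles -1.12 and 0.85), and the 5'UTR value was lower in 69 genes and higher in 70. Among the 82 genes with DKO reads in both places the median difference was 0.12, and 58 of them differed by less than 1 on the log2 scale. The counting intervals overlapped in 136 of the 139 genes. Coding exons were deeper, with a median of 126 wild-type reads against 68. The genes thus showed no common direction, and the overlap of wide limits does not show that the folds of a gene's regions are alike.

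**Figure D5:**
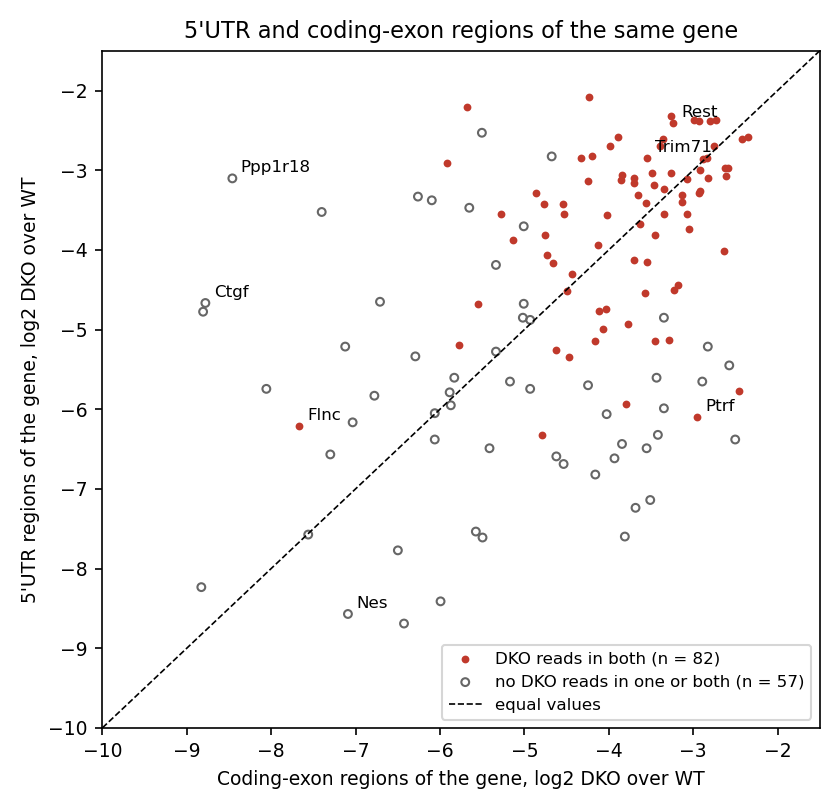
Log2 of DKO over wild type in the coding-exon regions (x axis) and 5'UTR regions (y axis) of the same gene, 139 genes; filled points had DKO reads in both, open points lacked them in at least 1 place, and the dashed line marks equal values. Genes lie on either side of the line, 69 below and 70 above.

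Values for single genes among the named members ranged from near-equal to several-fold apart. Myh9 had 310 and 35 reads in its 5'UTR (7.31-fold) and 566 and 65 in coding exons (7.18-fold). Trim71 had 1096 and 125 over its 3 5'UTR regions (7.23, 6.01 to 8.77) and 177 and 12 in coding exons (12.2, 6.79 to 24.0). Rest had 669 and 58 in coding exons (9.51, 7.27 to 12.7), where the interval narrowly overlapped that of its 5'UTR. Nes had 1900 and 11 in coding exons (142, 79.4 to 286) beside 230 and 0 in the 5'UTR, and Vgf had 573 and 5 (94.5, 40.3 to 292) beside 250 and 0. Cyr61 had 1032 and 38 in coding exons (22.4, 16.2 to 31.8) and 947 and 31 in a region labelled both coding exon and 3'UTR (25.2, 17.6 to 37.3). Mycn had 233 and 5 in coding exons (38.4, 16.2 to 119), against 597 and 33 over its 5'UTR regions (14.9, 10.5 to 21.9). All of these pairs overlapped in their intervals, and Nes and Vgf had few DKO reads in either place.

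Exact limits came apart in 3 of the 139 genes. Ptrf, a coat protein of caveolae, had 208 and 2 reads in the 5'UTR (85.8, 23.4 to 713) and 155 and 16 in the coding exon (7.99, 4.77 to 14.3). The reverse was found in Ctgf, with 266 and 0 in the coding exon, an exact lower limit of 59.1, beside the 5'UTR's 26.0 (16.5 to 43.6). It was also found in Ppp1r18, with 88 and 8 in the 5'UTR (9.07, 4.41 to 21.7) and 213 and 0 in the coding exon (exact lower limit 47.2). Among 71 genes with a region labelled 3'UTR, whether or not also coding exon, the median difference was -0.13 (quartiles -1.33 and 0.72). The value was lower in the 5'UTR in 38 and higher in 33. Limits came apart in 3, each with the larger fold in the 5'UTR: Basp1, B3gnt7 and Med11. Basp1 had 1616 and 141 reads in such regions (9.45, 7.95 to 11.3), of which 1520 and 141 lay in a region also labelled coding exon. Its region labelled 3'UTR alone had 96 and 0. The regions of B3gnt7 and Med11 were also labelled coding exon, so none of the 3 sets the 5'UTR apart from a 3'UTR alone. Of 36 genes with an intronic region, 11 had the lower value in the 5'UTR and 24 in the intron, and the median difference was 0.72. Many of these values rest on the pseudocount. In the 11 genes with DKO reads in both places the median difference was 0.31, with 4 lower in the 5'UTR and 7 higher. Limits came apart in 2, Ptpn14 and 9530052E02Rik, and the 5'UTR region of the latter is the one shared with an Irs2 coding exon.

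Gene lists, none of which is a complete account of its pathway, were read by counts and medians beside the members' median of -4.68, and none was tested. Of all 3884 genes in the table, 9.68% had a member. At least 10-fold lower were 52.5% of all regions and 56.6% of members. No DKO read was counted in 50.5% of all regions and 39.7% of members. Each list held few regions to set beside these shares. Immediate early genes had the largest share of listed genes with a member, 8 of 22. Of their 9 regions, 7 were at least 10-fold lower. Their median log2 was -5.15, the value of Egr1 with 21 and 0 reads, which rests on the pseudocount. With zeros at the floor their median fold was 15.9, against 11.1 for all members. Beside Ctgf, Cyr61 and Mycn, the phosphatase gene Dusp4 had 121 and 8 reads (12.5, 6.13 to 29.6). No DKO read was found for Dusp6 (112 in wild type), the nearer Mycn region (91), Myc (58) or Egr1 (21), and Klf9 had 24 and 2. The matrix and adhesion list, which lacks Pvrl2, Pcdh7, Ctgf and Cyr61, had 5 regions with a median of -5.65. That median is the value of Nid1, with 30 and 0 reads, and rests on the pseudocount. With zeros at the floor the list's median fold was 12.9. Its deepest region was that of the filamin gene Flnc with 224 and 2 reads (92.4, 25.3 to 767). The matrix glycoprotein gene Sparc had 103 and 10 (8.50, 4.44 to 18.2). Integrin gene Itga3 had 64 and 1 and 47 and 0, and the basement membrane gene Nid1 had 30 and 0.

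The Wnt pathway list, which holds no Wnt ligands, had 2 regions, both of receptors. Fzd7 had 216 and 27 reads (6.60, 4.41 to 10.2) and Fzd5 had 92 and 2 (37.9, 10.2 to 318), so their intervals met only at the edge. Neither Gsk3a nor a 5'UTR of Gsk3b was listed. The 1 region of Gsk3b, 78 and 3 reads, lay upstream of the gene and cannot check the knockout. The insulin and mTOR list also had 2, the mTOR inhibitor Ddit4 with 290 and 24 (9.97, 6.57 to 15.8) and the IGF2 scavenger receptor gene Igf2r with 46 and 1. Pluripotency genes had 2 regions, among them that of Nodal described above. Of the defining markers, Pou5f1 was listed only in a coding exon (55 and 6 reads), and Nanog and Sox2 were not listed, so the table does not establish the cells' state.

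Of the 125 genes of the translation list and the 30 of the stress list, 12 each were in the table. Counts this small show no lack of members beside the 9.68% of all genes in the table that had one. Of 12 listed genes with 5' terminal oligopyrimidine tracts or for translation factors, 2 had a member. Rpl32 had 69 and 0 reads in a region also upstream of the small nucleolar RNA gene Snora7a. Rps4y2, with 119 and 18 (5.45, 3.31 to 9.52), has near-identical relatives and lies in an intron of another gene, so its reads are uncertain. Of 12 listed stress genes 1 had a member, the chaperone gene Hsp90ab1 with 35 and 1 reads (28.9, 4.85 to 1172). Of 8 listed m6A writers, erasers and readers 1 did, the reader gene Igf2bp1 with 117 and 9 (10.7, 5.46 to 24.0).

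Among regulators of chromatin, 5 of 31 listed genes had a member, with a median of -3.55. Beside Brd2, the chromatin remodelling genes Arid2, Arid1a and Arid1b had 99 and 1, 35 and 2, and 34 and 0 reads. Developmental regulators had 7 regions with a median of -4.85, and 4 had no DKO reads, against 50.5% of all regions. With zeros at the floor their median fold was 7.15, against 11.1 for all members. The 7 regions included the heart factor gene Tbx20 with 99 and 0 (at least 27.2-fold), Dlx3 with 45 and 0, and Foxj2 with 46 and 1 and with 52 and 6. The cell cycle list had 2, the CDK inhibitor gene Cdkn1b with 64 and 3 (17.6, 5.76 to 87.6) and the phosphatase gene Cdc25a with 58 and 5 (9.57, 3.87 to 30.6).

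Ubiquitin ligases and deubiquitinases had 12 regions in 9 of 91 listed genes, with a median of -3.60 and 5 at least 10-fold lower. Trim71 accounted for 3 of them. Trim8 had 187 and 27 reads (5.71, 3.80 to 8.90), Trim41 had 71 and 9 and, nearer the start, 61 and 0, and Rnf217 had 48 and 1. Genes named Zfp had 9 regions with a median of -3.63, 6 of them at least 10-fold lower. Over all listed regions the share at least 10-fold lower was 52.5%. Zfp668 had 68 and 0 reads, Zfp207 had 52 and 3, and Zfp664 had 45 and 4 (9.28-fold). The cause of the spread between lists was not tested.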

How the data were processed

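Counts of reads per region in the wild-type and Gsk-3 DKO libraries were used as deposited by the authors, and the file headers state no normalization. The deposited enrichment ratio equals the wild-type over the DKO count times 0.825 and is blank at 0 DKO reads. The authors' read density is a signal, the wild-type count per base. Bowtie2, DESeq and mm9 are named, without version or role, per the submitters' processing notes, and the sources used here name neither a peak caller nor a rule for listing regions. The coordinates match GRCm38: all 410 5'UTR rows lay within 5000 bases of their gene in RefSeq GRCm38.p6, and for 227 of 302 members found in its promoter table the deposited distance was within 1 base of the distance from the region's centre to a RefSeq start. The table holds no library totals, so depth is known only per region.

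Regions were reduced to 1 per position. Settings were a pseudocount of 0.5, a floor of 3 reads for a count of 0, a 95% level and a 10-fold line. The floor is less cautious than the exact Poisson limit of 3.69 and ignores the wild-type count's own error. Values were computed with Python 3.11.15, numpy 2.4.6, pandas 2.3.3, scipy 1.17.1 and matplotlib 3.10.9. The log2 medians and ratio intervals were checked on simulated data with more wild-type reads per region than most members had. That check did not cover low counts, the floor, the shares of zero counts or the 10-fold line. Shares of all regions are given beside each first count. Exonic comparisons weighted by wild-type count used 6 ranges. With 1 library per group there was no test.

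The members, the 13 gene lists and the naming rule were chosen with earlier results of these data known. The rule named the 10 deepest members, 8 at each end of log2 at or above the median mean count, up to 8 genes with several regions, up to 4 members per list, and other regions of the deepest genes, passing over predicted genes. The lists are stress and upstream-ORF, terminal oligopyrimidine and translation, immediate early, Wnt, insulin and mTOR, pluripotency, m6A, chromatin, developmental regulator, cell cycle, matrix and adhesion, ubiquitin and Zfp genes. Of the members, 99 were annotated to several genes and 69 also lay upstream of another gene. Alternatives changed the pseudocount, the constant, the floor, the depth filter and the members kept. No column was left unmapped. A few genes taken by this rule are left unreported here.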

Additional observations from a re-analysis of the deposited data

How the results depend on the processing

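No paired analysis was possible because each group has 1 library. Of 48 alternatives, 31 stayed within the main value's interval, 16 left it and 1 turned its sign, and for 71 named regions all 213 alternatives stayed within the counting interval. For named regions without DKO reads that interval has no lower end, so staying inside does not show a stable log2 value. Vgf had -8.69 in the main setting, -9.69 with a pseudocount of 0.25 and -6.70 with a pseudocount of 2, all inside. With a pseudocount of 2 the median log2 of all members was -3.37 (main -4.68), with the coding-exon label -3.37, without it -3.39, upstream of the start -3.65, under 200 bases downstream -3.31, from 200 to under 1000 bases -3.44 and at 1000 bases or more -3.31. With a pseudocount of 0.25 it was -4.91 for all members, -5.02 without the label and -5.83 upstream. Without the authors' constant it was -4.95 for all members and -4.91 under 200 bases downstream. Members whose mean count reached the list's median had no DKO reads in 27.5% and were at least 10-fold lower in 72.1%. The latter share was 77.3% with a floor of 1 count and 70.8% without the constant. The share without DKO reads was 11.5 points below all other regions (-11.5) and 3.35 points above other exonic regions at the same wild-type counts. Keeping 1 region per gene, members annotated to 1 gene, those with both UTRs, those not upstream of another gene, or those on coding transcripts outside other genes' coding exons moved no median or share out of its interval. The last 2 of these were chosen after seeing the data. Depth limits the members with fewer than 37 wild-type reads and no DKO read, 83 of 401, which cannot be placed above 10-fold.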

Other observations

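Some members outside the naming rule were chosen here after their values were seen. Of these, Pdgfb and Wnt6 had among the largest folds that rest on at least 1 DKO read. Pdgfb, a platelet-derived growth factor subunit, had 151 and 1 reads at chr15:80014121-80014574, a fold of 125 (22.0 to 4951). The secreted ligand gene Wnt6 had 145 and 1 at chr1:74771913-74772424, a fold of 120 (21.1 to 4756). With 1 DKO read, the upper limits of both are set by counting error. The next folds are examples with more DKO reads and not the next largest, as Flnc had 92.4 and Ptrf 85.8. Folds with more DKO reads were 42.6 (14.3 to 209) for the tropomyosin gene Tpm2 (155 and 3), 37.1 (12.4 to 182) for Crim1 (135 and 3), 36.6 (12.2 to 180) for the autophagy gene Atg3 (133 and 3) and 26.9 (12.8 to 67.6) for the hypoxia-inducible factor gene Epas1 (228 and 7). Tpm2 and Tpm4 encode related tropomyosins, and their 5'UTR regions had 42.6-fold (14.3 to 209) and 5.24-fold (3.73 to 7.55) lower DKO counts, with intervals that did not overlap. This difference was not particular to 5'UTRs. In coding exons Tpm2 had 232 and 3 reads (63.8, 21.6 to 312) and Tpm4 had 84 and 10 (6.93, 3.59 to 15.0). The relatives Tsc22d1 (230 and 13) and Tsc22d2 (277 and 21) had folds of 14.6 (8.37 to 27.8) and 10.9 (6.98 to 17.9), with overlapping intervals.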
